A study of Mus musculus with 13 samples.

Results

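Striatal projection neurons, also called medium spiny neurons, are the inhibitory output cells of the striatum, and 9 genes that mark them were read in whole mouse hippocampus as a gauge of tissue carried along at dissection. Of these, 8 have a probe set of their own, 1 each, among the 19938 genes that the platform annotation names by a single symbol: Drd1, Tac1, Isl1, Drd2, Penk, Six3, Ppp1r1b and Rgs9. Adora2a, the adenosine receptor gene of the list, was not analysed here. The study profiled 13 C57BL/6J mice aged 1 to 2 months on standard chow, 1 array of the Affymetrix Mouse Gene 1.0 ST design per mouse. Kmt2d+/βGeo mice carry a gene trap in 1 copy of the histone methyltransferase gene Kmt2d and serve as a model of Kabuki syndrome. Wild-type mice are Kmt2d+/+. In experiment 2, 3 heterozygous and 3 wild-type mice received saline vehicle 3 times a day, as controls of a different experiment. In experiment 1, 3 heterozygous and 4 wild-type mice received no injections. RNA was extracted with TRIzol and spin columns in experiment 2 and with the RNeasy kit in experiment 1. The labels give the sex as female for 12 mice and as unknown for 1, the third wild-type mouse of experiment 1.

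The genes were selected on their values on these arrays. A striatal list had stood high on 1 array and below 0 in the comparison of genotypes. Levels on single arrays and differences between genotypes are therefore given as a description, with no test, as is the comparison of the experiments in wild-type mice where it includes that array. The comparison of the experiments is tested in heterozygous mice, and in wild-type mice without that array. Whole hippocampus is a mixture of cells, so more cells of a type and more RNA per cell cannot be told apart in any value below.

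The striatum holds projection neurons of a direct and an indirect pathway, which leave it by different routes and answer dopamine in opposite ways. Direct-pathway neurons carry the D1 dopamine receptor and make substance P, while indirect-pathway neurons carry the D2 receptor and an adenosine receptor and make enkephalin. Both kinds share DARPP-32, a phosphatase inhibitor set by dopamine through cyclic AMP, and RGS9, which shortens signals of G proteins. The hippocampus has no such neurons, yet it transcribes several of these genes at some level, among them Drd2 in mossy cells of the dentate hilus and Penk and Tac1 in scattered neurons. A level above 0 is thus no sign of striatal tissue, and only its variation between mice can be read.

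The annotated starts of the receptor genes that define the pathways are shown because both genes stood among the highest of all genes on 1 array. The RefSeq windows hold 250 bases before and 50 after a start, on build GRCm38.p6, with the GC box GGGCGG in capitals on either strand (printed as CCGCCC where it lies on the other strand).
Drd2, chr9:49340153-49340452, plus strand: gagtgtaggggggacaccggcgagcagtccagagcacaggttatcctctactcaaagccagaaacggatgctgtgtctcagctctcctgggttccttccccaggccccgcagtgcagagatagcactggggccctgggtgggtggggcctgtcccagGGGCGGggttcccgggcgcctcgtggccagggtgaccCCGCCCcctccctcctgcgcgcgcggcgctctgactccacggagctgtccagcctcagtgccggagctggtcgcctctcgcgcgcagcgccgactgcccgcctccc
Drd1, chr13:54055609-54055908, minus strand: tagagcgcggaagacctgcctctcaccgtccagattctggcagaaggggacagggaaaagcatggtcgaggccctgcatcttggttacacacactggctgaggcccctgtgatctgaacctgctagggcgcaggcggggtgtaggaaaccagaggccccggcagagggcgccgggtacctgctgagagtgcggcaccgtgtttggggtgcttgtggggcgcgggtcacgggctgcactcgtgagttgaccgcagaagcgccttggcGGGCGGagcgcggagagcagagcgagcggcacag
Windows were found for 6 of the 8 genes, 7 in all since Drd1 has a pair of starts. The GC box was present in 5 of the 7, against 35.6% of 32817 windows of the same length. TATAAA was present in 1, that of Rgs9 (13.6% of all windows), and the cyclic AMP response element TGACGTCA in none (1.79% of all). Neither of these overlapped a GC box in the windows printed, where they do not occur. The Drd2 window was 70.3% and the Drd1 window 65.7% G and C, against a median of 52.7% over all windows. These are descriptions of the letters and not evidence of binding.

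The labelled tissue was set against its markers. Of 23 markers of dentate granule cells and pyramidal cells, 20 lay above the median of the array on all 13 arrays, as did 6 of the 8 striatal genes, so this measure does not separate the tissues. Prox1, the transcription factor of dentate granule cells, ranged from 8.21 to 10.28 log2 units and Fibcd1, a CA1 marker, from 8.31 to 9.97. The median of an array over all probe sets lay between 7.04 and 7.08 in experiment 2, and between 6.74 and 6.90 in experiment 1. The Kmt2d probe set 10432294 read 7.88 to 8.18 in heterozygous and 8.32 to 8.76 in wild-type mice of experiment 2, and 7.17 to 7.47 in heterozygous and 7.87 to 7.90 in wild-type mice of experiment 1. The other Kmt2d probe set, 10432298, overlapped between genotypes in experiment 2, at 9.49 to 9.80 against 9.46 to 9.82. In experiment 1 it read 9.84 to 9.95 in heterozygous and 9.82 to 9.83 in wild-type mice, so it ran against the first, and which part of the transcript each covers was not analysed here.

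1 array stood apart before any comparison. All 8 genes were highest, of the 7 arrays of experiment 1 and of all 13, in wild-type replicate 2 of experiment 1. Among genes of the direct pathway, Drd1, the D1 receptor, read 7.46, 7.49 and 7.33 log2 units in heterozygous and 7.61, 7.77 and 7.42 in wild-type mice of experiment 2. In experiment 1 it read 7.72, 7.71 and 7.67 in heterozygous mice and 7.66, 10.84, 7.41 and 7.64 in wild-type mice, in the order of the replicates. The array of wild-type replicate 2 thus lay 3.27 above the mean of the other 3 wild-type mice, a fold of 9.68, while the other 12 arrays spanned 7.33 to 7.77. Tac1, the precursor of substance P and neurokinin A, read 8.38, 7.94 and 7.78 in heterozygous and 8.13, 8.14 and 7.66 in wild-type mice of experiment 2. Experiment 1 gave 8.47, 8.27 and 7.997 in heterozygous and 8.60, 10.88, 8.32 and 8.60 in wild-type mice. The same array was 2.37 above the other wild-type mice (5.18-fold), and the groups overlapped on the remaining arrays. Isl1, a LIM homeodomain factor that specifies direct-pathway neurons and is also kept in forebrain cholinergic neurons, read 6.16, 6.00 and 6.03 in heterozygous and 6.38, 6.42 and 6.10 in wild-type mice of experiment 2. Values of experiment 1 were 5.69, 5.66 and 5.59 in heterozygous and 6.10, 7.06, 6.11 and 6.03 in wild-type mice. Its difference on that array was 0.98 (1.97-fold), and, unlike Drd1 and Tac1, its heterozygous values of experiment 1 lay below all 4 wild-type values.

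Among genes of the indirect pathway, Drd2, the D2 receptor, read 7.47, 7.40 and 7.11 log2 units in heterozygous and 7.39, 7.68 and 7.72 in wild-type mice of experiment 2. In experiment 1 it read 7.85, 7.70 and 7.61 in heterozygous and 8.10, 11.43, 8.18 and 7.83 in wild-type mice. Wild-type replicate 2 lay 3.39 above the other wild-type mice (10.5-fold), the largest difference among the 8 genes, and the next highest array of the series read 8.18. Penk, the enkephalin precursor, read 10.13, 10.22 and 9.83 in heterozygous and 10.15, 9.99 and 9.90 in wild-type mice of experiment 2. Experiment 1 gave 10.45, 10.19 and 10.19 in heterozygous and 10.12, 12.97, 10.14 and 9.97 in wild-type mice. The difference on wild-type replicate 2 was 2.90 (7.45-fold), and the heterozygous mice of experiment 1 lay above the other 3 wild-type mice. Six3, a homeodomain factor that indirect-pathway neurons need to form, read 6.53, 6.61 and 6.53 in heterozygous and 6.55, 6.59 and 6.66 in wild-type mice of experiment 2. Values of experiment 1 were 6.298, 6.390 and 6.502 in heterozygous and 6.506, 7.154, 6.490 and 6.505 in wild-type mice. Its difference on that array, 0.65 (1.57-fold), was the smallest of the 8.

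Of the genes both pathways share, Ppp1r1b, which encodes DARPP-32, read 8.89, 8.67 and 8.82 log2 units in heterozygous and 8.84, 9.10 and 8.87 in wild-type mice of experiment 2. In experiment 1 it read 8.75, 8.72 and 8.70 in heterozygous and 8.83, 11.03, 9.02 and 9.005 in wild-type mice. Wild-type replicate 2 lay 2.08 above the others (4.23-fold), and the 3 heterozygous values of experiment 1 were under each of its 4 wild-type values. Rgs9 read 9.25, 9.39 and 8.69 in heterozygous and 9.16, 9.07 and 9.01 in wild-type mice of experiment 2. Experiment 1 gave 8.56, 8.51 and 8.19 in heterozygous and 8.33, 11.17, 8.71 and 8.36 in wild-type mice. The difference on wild-type replicate 2 was 2.71 (6.52-fold), and on the other arrays every value of experiment 1 but that of wild-type replicate 3 lay below every value of experiment 2.

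**Figure D1:**
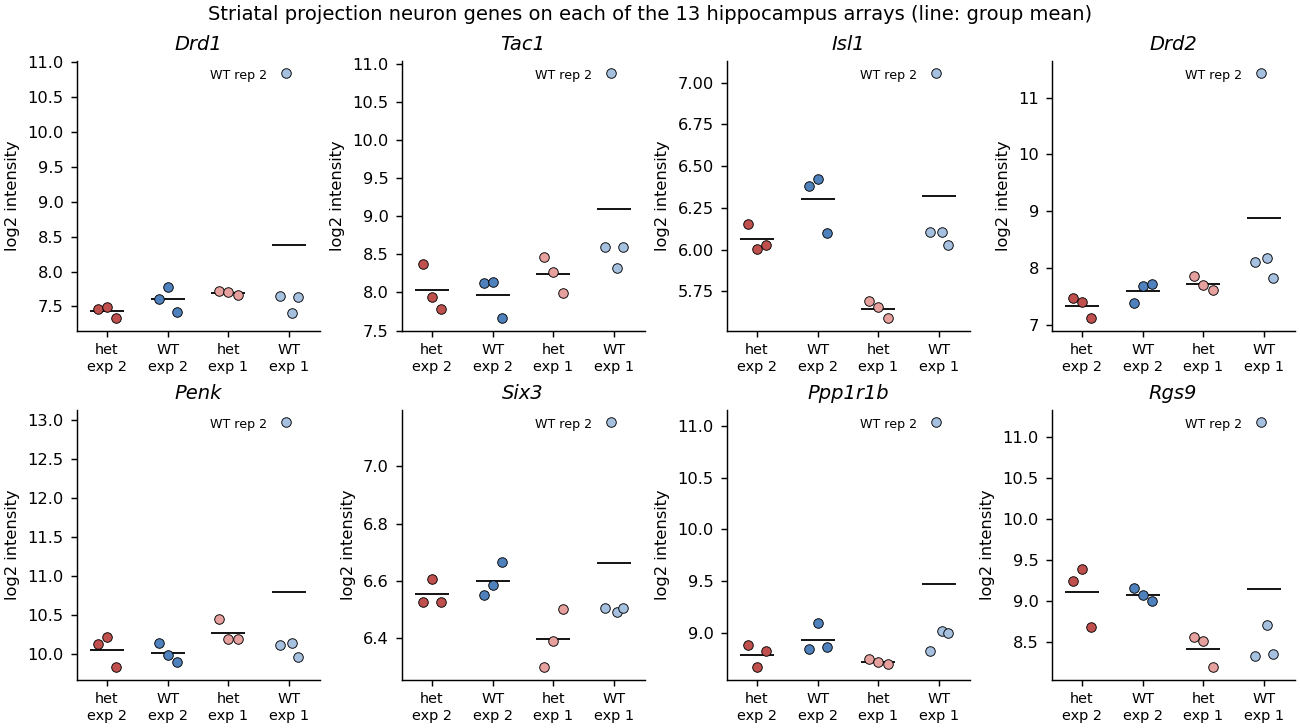
Log2 intensity of the 8 striatal projection neuron genes on each array (vertical axes, each with its own range), by genotype and experiment (het, Kmt2d+/βGeo; WT, wild type; exp, experiment), with points for mice and lines for group means. In every panel wild-type replicate 2 of experiment 1 is the highest point, at 10.84 for Drd1 and 11.43 for Drd2, and it pulls the mean of its group above the other 3 wild-type mice.

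On that array Drd2 and Drd1 ranked 3 and 4 among 19938 genes by their difference from the other 3 wild-type mice, Penk 8, Rgs9 9, Tac1 11 and Ppp1r1b 21, while Isl1 ranked 95 and Six3 187. The difference exceeded 2-fold for 6 of the 8 genes, against 0.436% of all genes (87), no member was more than 2-fold below, against 0.281% (56), and the median was 2.54 over the 8 genes and -0.02 over all genes. These values include those that led to the choice of the genes, and nothing is read from the count. The median was 2.37 for the 3 direct-pathway genes and 2.90 for the 3 indirect-pathway genes, and the transcription factors Isl1 and Six3 were the lowest of each. Leaving out wild-type replicates 1, 3 or 4 of experiment 1 in turn gave a median over the 8 genes of 2.53 to 2.55, and giving all arrays the same median gave 2.44.

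Further genes that mark the same neurons were read on that array as a description. Of 36 further striatal projection neuron genes listed from textbook knowledge, 35 were measured. All 35 were above 0 on that array relative to the other wild-type mice, against 44.5% of all genes. Of them 19 exceeded 2-fold, against 0.436% of all genes. The list was written with earlier results of these data known, and a striatal list had stood high on this array, so nothing is read from these counts. The median of the 35 was 1.05, with differences of 0.02 to 3.75. Highest were Scn4b, a sodium channel subunit (3.75, 13.4-fold), Gpr6, an orphan receptor of indirect-pathway neurons (3.27), Sh3rf2 (3.07), the retinoid receptor genes Rarb (2.31) and Rxrg (2.23) and the forkhead factor Foxp2 (2.23). Lowest were the factors of striatal progenitors Gsx2 (0.02), Sp9 (0.15) and Dlx5 (0.35), with Ankk1 (0.24), a neighbour of Drd2. Scn4b ranked first of all genes on that array. Its levels were 6.89, 6.41 and 6.10 in heterozygous and 6.67, 7.08 and 6.998 in wild-type mice of experiment 2, and 7.87, 7.93 and 7.49 in heterozygous and 7.79, 11.38, 7.98 and 7.14 in wild-type mice of experiment 1. The 10 highest genes apart from the 8 were completed by Serpina9 (3.56), Gpx6 (3.25), Gpr52 (2.64), an orphan receptor of indirect-pathway neurons, and Nexn (2.20), none of them in a list.

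Partners of the same signals were a mixed group on that array. Of 18 genes for dopamine, adenosine, opioid and tachykinin signalling outside the 8, 15 were measured, with a median of 0.32. Among these 12 were above 0, against 44.5% of all genes, and 3 exceeded 2-fold, against 0.436%. This list too was written with earlier results of these data known, and nothing is read from these counts. The kappa opioid receptor gene Oprk1, which the further striatal list also holds, was at 2.15, the D3 receptor gene Drd3 at 1.04 and the substance P receptor gene Tacr1 at 1.04. Genes of dopamine neurons, whose axons but not cell bodies lie in the striatum, were at 0.74 for Th, 0.05 for the transporter Slc6a3, -0.30 for Slc18a2 and -0.43 for Ddc.

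Other regions and cell types differed on the same array, where 44.5% of all genes lay above 0 and 11040 of 19938 below. Markers of cholinergic interneurons, large local neurons of striatum, had a median of 0.64 with 7 of 7 measured above 0. Cholinergic neurons of the septum share such markers. Highest were the choline transporter Slc5a7 (1.72) and Chat, the acetylcholine-synthesising enzyme (0.77). Markers of the choroid plexus, the epithelium of the ventricles, had a median of -1.37 with 10 of 10 below 0, as for the bicarbonate transporter Slc4a5 (-1.93) and Otx2 (-1.64). Septum markers had a median of -0.54 (10 of 11 below 0), with Glp1r at -1.62 and Zic1 at -0.92. Dentate granule cell markers had a median of -0.51 (10 of 12 below 0), with desmoplakin, Dsp, at -1.37 and Prox1 at -0.84. Medians were -0.08 for pyramidal cells of the CA fields, -0.004 for hippocampal interneurons, -0.10 for globus pallidus and basal forebrain, -0.11 for thalamus and -0.22 for cortex. Their part in the levels of the striatal genes was not tested. These lists too were written with earlier results of these data known, and nothing is read from their counts.

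**Figure D2:**
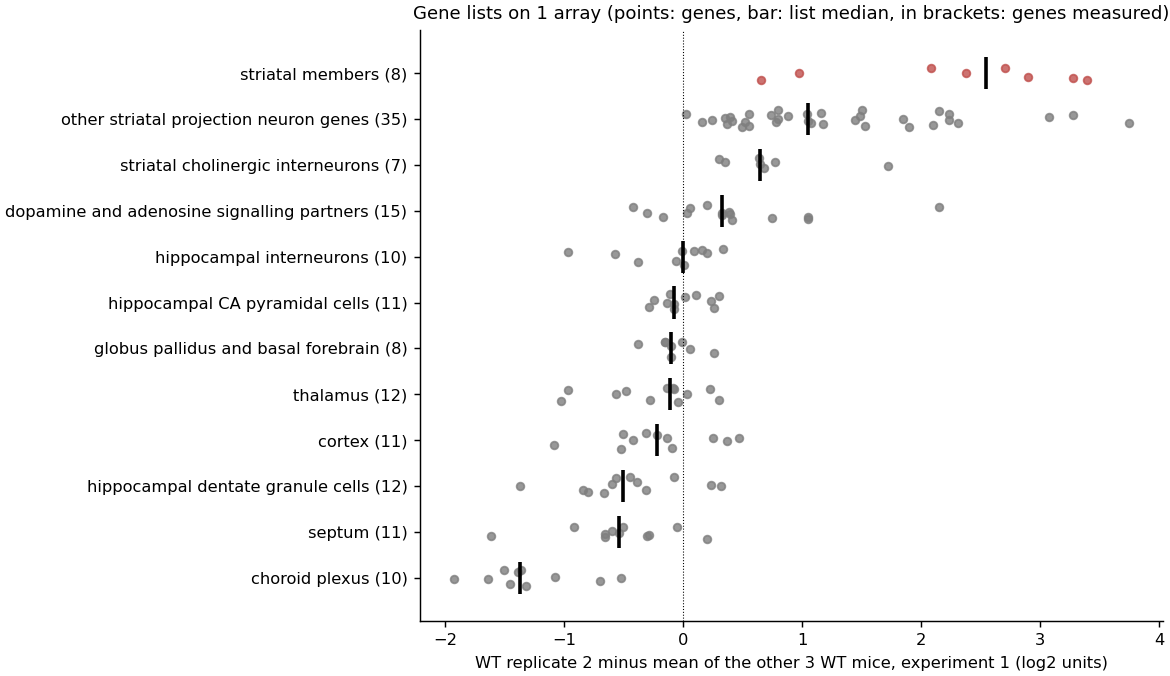
Difference of wild-type (WT) replicate 2 of experiment 1 from the mean of the other 3 wild-type mice, in log2 units (horizontal axis), for the genes of each list (points; vertical offsets within a row carry no value), with a bar at the list median and the number measured in brackets; lists other than the first leave out the 8 genes. The medians run from 2.54 for the 8 striatal genes and 1.05 for the further striatal genes to -1.37 for the choroid plexus.

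Set against the median of its experiment, gene by gene, the mean of the 8 genes was 2.31 on the array of wild-type replicate 2 of experiment 1 and -0.20 to 0.14 on the other 12 arrays. For the further striatal genes it was 1.23 on that array and -0.11 to 0.08 on the others. At the low end, heterozygous replicate 3 of experiment 2 had the lowest value of its experiment for 5 of the 8 genes, Six3 in a tie with replicate 1 (mean -0.19), and heterozygous replicate 3 of experiment 1 for 5 of the 8 (mean -0.20). On both arrays 1 of the 8 genes lay above the mean of the other heterozygous mice of its group. Of all genes 42.2% did so in experiment 2 and 44.3% in experiment 1, so most genes lay lower there too. The share of all genes that were lowest on these arrays was not analysed here. On the first of these arrays the cholinergic markers were at -0.27, the septum at -0.19, hippocampal interneurons at -0.14 and the choroid plexus at 0.60. On the second they were at -0.19, -0.20, -0.03 and -0.27 in the same order. Choroid plexus values of wild-type mice of experiment 1 were 0.87, 1.10 and 1.14 in replicates 1, 3 and 4 and -0.26 in replicate 2, which lay among heterozygous values of -0.34 to -0.04. The array highest for striatal genes was therefore the lowest of its group for the choroid plexus. Whether one moves with the other was not tested. Septum values of wild-type mice of experiment 1 were 0.48, 0.62 and 0.27 in replicates 1, 3 and 4 and -0.08 in replicate 2. Those of heterozygous mice of experiment 1 were -0.20 to -0.15.

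**Figure D3:**
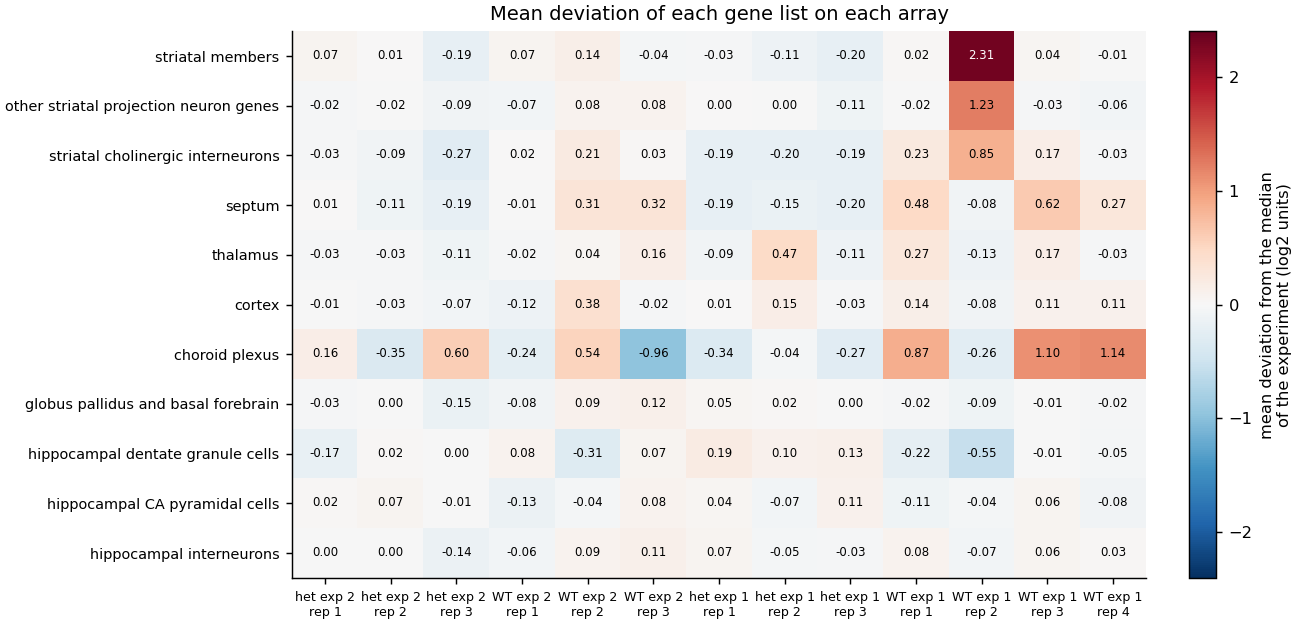
Mean deviation of each gene list (rows) from the median of its experiment on each of the 13 arrays (columns, het for Kmt2d+/βGeo and WT for wild type), in log2 units, as colour and as printed value. The 8 striatal genes reach 2.31 on 1 array and stay between -0.20 and 0.14 on the other 12.

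The correlations among the 8 genes were far higher with that array than without it. As deviations from the mean of each group over all 13 arrays, the 28 pairs among them had correlations of 0.84 to 0.99, with a median of 0.96. Without wild-type replicate 2 of experiment 1 the pairs ranged from -0.67 to 0.81 over 12 arrays, with a median of 0.16 and 18 of 28 above 0. Against the mean of the other 7 genes on the 12 arrays, Penk had the highest correlation (0.69) and Six3 the lowest (-0.52). Over 13 arrays the genes most like the mean of the 8 were Cpne5 (r = 0.995), the striatal phosphodiesterase gene Pde10a (0.991), Gpr6 (0.990), Slc35d3 and the striatal adenylyl cyclase gene Adcy5 (both 0.983), followed by Pde1b, Gpr52, Serpina9, Rxrg and Scn4b (0.975 to 0.980), and 6 of these 10 are in the further striatal list. Over the 12 arrays the genes most like it were Rhov (0.966), AI467606 (0.959), Usp35 (0.958), Tspan4 (0.957) and Ccn3 (0.955), none of them in a list. These correlations are measures of likeness, each among the highest of 19938. Of the other genes, 70 had a correlation above 0.9 over 13 arrays and 52 over 12. The further striatal list holds 35 of all 19938 genes. It was written with the high array known, and the values over 13 arrays depend on that array, so nothing is read from the 6 of 10. The share above 0 among pairs of other genes was not analysed here.

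The comparison of genotypes changed with that array. With all 13 arrays the difference between heterozygous and wild-type mice over both experiments was negative for all 8 genes, against 49.0% of all genes. Its median was -0.44 over the 8 and 0.00 over all genes. Without wild-type replicate 2 of experiment 1 it was negative for 7 of 8, against 50.4% of all genes, with a median of -0.09. Drd2 stood at -0.75 ± 0.43 with all arrays and -0.29 ± 0.09 without that one (SE), and Drd1 at -0.45 ± 0.40 and -0.02 ± 0.08. Tac1 stood at -0.43 ± 0.33 and -0.10 ± 0.12, and Rgs9 at -0.37 ± 0.35 and -0.01 ± 0.11. For Drd1, Tac1 and Rgs9 the value without the array was under its standard error. Penk stood at -0.26 ± 0.36 with all arrays and, with the sign turned, at 0.12 ± 0.08 without that one. Ppp1r1b stood at -0.46 ± 0.27 and -0.18 ± 0.07, and Six3 at -0.16 ± 0.10 and -0.08 ± 0.06. Isl1 kept most of its difference, at -0.47 ± 0.14 and -0.34 ± 0.07. It was the dimmest of the 8, at 5.59 to 6.42 on the other 12 arrays, below the array medians of 6.74 to 7.08. With the dimmest 30% of genes left out, 7 of the 8 genes remained and Isl1 was not among them. The standard errors were wider with the array because its values enter the spread that all groups share.

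Within the experiments the array touched experiment 1. There the median over the 8 genes was -0.71 with all arrays and -0.16 without wild-type replicate 2, and in experiment 2 it was -0.09. Without the array, Drd1 differed by -0.17 ± 0.10 in experiment 2 and 0.13 ± 0.10 in experiment 1 (SE), and Penk by 0.05 ± 0.11 and 0.20 ± 0.11. Isl1 differed by -0.24 ± 0.09 in experiment 2 and -0.43 ± 0.09 in experiment 1, Drd2 by -0.27 ± 0.13 and -0.32 ± 0.13, and Ppp1r1b by -0.14 ± 0.10 and -0.23 ± 0.10. Six3 differed by -0.05 ± 0.08 and -0.10 ± 0.08. Of the 8 genes, Isl1, Drd2, Ppp1r1b, Six3 and Penk had the same sign in both experiments, Penk above 0 and the others below. In experiment 1, every heterozygous mouse lay below every wild-type mouse for 2 of the 8 genes, Isl1 and Ppp1r1b, against 2.75% of all genes (0 of 8 above, against 4.47%), and for the same 2 genes without wild-type replicate 2, against 7.58%. Without that array every heterozygous mouse also lay above every wild-type mouse for Drd1 and Penk, against 7.48% of all genes. In experiment 2 the genotypes overlapped for all 8 genes, where 5.17% of all genes had every heterozygous mouse below and 4.32% above. These shares are from the contrast with which the genes were chosen, and nothing is read from them.

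**Figure D4:**
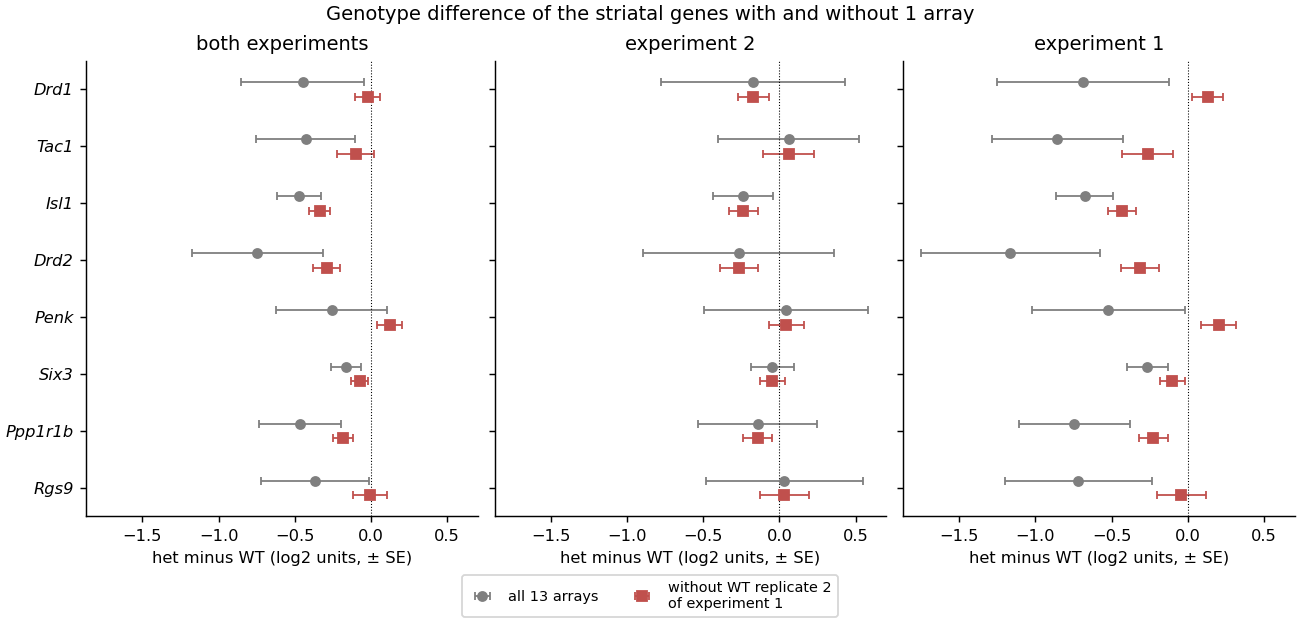
Difference of Kmt2d+/βGeo (het) minus wild-type (WT) mice for the 8 genes, in log2 units with standard errors from limma, over both experiments and within each, with all 13 arrays (circles) and without wild-type replicate 2 of experiment 1 (squares). Without that array the values lie closer to 0 in experiment 1, those of Drd1 and Penk on the other side of it, and Isl1 stays at -0.43.

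Isl1 is also a gene of cholinergic neurons. Without wild-type replicate 2 of experiment 1, all measured genes of the cholinergic list but Gbx2 were below 0 over both experiments, as were 50.4% of all genes. Slc10a4, a vesicular protein of cholinergic neurons, differed in this comparison by -0.66 ± 0.15 (SE) and Ecel1, a metallopeptidase, by -0.71 ± 0.15. Both were known from earlier results of these data to be low in heterozygous mice when the cholinergic list was written. The other 5 measured members of that list were between -0.22 and 0.05, with Slc5a7 at -0.22 ± 0.10 and Slc18a3, the vesicular acetylcholine transporter, at -0.20 ± 0.08. Chat differed by -0.08 ± 0.07. Septum markers in the same comparison ran from -1.23 ± 0.15 for Glp1r and -1.14 ± 0.17 for Zic1 to 0.03 ± 0.07 for Sox3 and 0.04 ± 0.08 for Trpc5. The share of Isl1 that comes from cholinergic cells was not tested, nor was its relation to the septum markers.

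The experiments were compared within each genotype. The wild-type comparison with all arrays holds the array on which the genes were chosen, and nothing is read from its values. Saline injection, the method of RNA extraction and the microarray experiment itself differ together and cannot be told apart. In heterozygous mice 62.3% of all genes passed the threshold of a limma adjusted p of 0.05 (31.0% higher and 31.3% lower in experiment 2), and 69.3% in wild-type mice (37.3% higher and 32.0% lower). With all 13 arrays, 0 of the 8 genes passed in heterozygous mice, where none of the 8 had an unadjusted p under 0.05 either, and 1 of 8 in wild-type mice. That gene was Tac1, at -1.13 with all arrays and -0.54 without the high one, and 0 of 8 passed with every probe set, with array weights or with eBayes trend and robust. The wild-type differences with all arrays were below 0 for 8 of 8 genes (median -0.66), against 44.4% of all genes. Without the high array they were below 0 for 4 of 8, against 44.8% of all genes. The high array widens the shared spread, so that the 95% intervals in heterozygous mice, whose own arrays do not include it, were -0.41 to 1.78 for Rgs9 and -1.73 to 0.94 for Drd2.

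Without wild-type replicate 2 of experiment 1, 4 of the 8 genes passed in each genotype, against 62.9% of all genes in heterozygous mice (31.2% higher and 31.7% lower) and 68.7% in wild-type mice (36.2% higher and 32.5% lower), and in each genotype 2 of the 4 were higher and 2 lower. That array was picked by the values of these genes. Leaving it out took the SE of Drd1 in heterozygous mice from 0.60 to 0.10, so the p-values below are conditional on that choice. Rgs9 was higher in experiment 2 in both genotypes, by 0.69 ± 0.16 in heterozygous (SE, limma adjusted p = 0.00185, 1.61-fold) and 0.61 ± 0.16 in wild-type mice (limma adjusted p = 0.00359, 1.53-fold). Drd2 was lower in both, by -0.39 ± 0.13 in heterozygous (limma adjusted p = 0.0143) and -0.44 ± 0.13 in wild-type mice (limma adjusted p = 0.00623). Isl1 was higher in both, by 0.42 ± 0.09 in heterozygous (limma adjusted p = 0.0015) and 0.22 ± 0.09 in wild-type mice (limma adjusted p = 0.0491). Drd1 passed in heterozygous mice, at -0.27 ± 0.10 (limma adjusted p = 0.0322), and stood at 0.03 ± 0.10 in wild-type mice. Tac1 passed in wild-type mice, at -0.54 ± 0.17 (limma adjusted p = 0.0107), and stood at -0.21 ± 0.17 in heterozygous mice. The differences between the genotypes in these effects, -0.30 ± 0.15 for Drd1 and 0.32 ± 0.24 for Tac1, did not pass (limma adjusted p = 0.674 and 0.756).

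Penk, Ppp1r1b and Six3 did not pass in either genotype on the deposited scale. Penk differed by -0.22 (95% interval -0.46 to 0.03) in heterozygous and -0.06 (-0.31 to 0.18) in wild-type mice, Ppp1r1b by 0.07 (-0.14 to 0.27) and -0.02 (-0.22 to 0.19), and Six3 by 0.16 (-0.02 to 0.33) and 0.10 (-0.07 to 0.27). Giving all arrays the same median and leaving out that array put the median of all genes at -0.20 in heterozygous and -0.19 in wild-type mice, against 0.05 and 0.08 as deposited. On that scale 5 of the 8 genes passed in heterozygous and 4 in wild-type mice. Of all 19938 genes 11508 passed in heterozygous mice (2467 higher and 9041 lower) and 12162 in wild-type mice (3135 higher and 9027 lower). Penk passed in both, at -0.47 (limma adjusted p = 0.0038) and -0.33 (limma adjusted p = 0.0297), and Tac1 in both, at -0.46 (limma adjusted p = 0.0273) and -0.80 (limma adjusted p = 0.000544). Ppp1r1b passed in wild-type mice (-0.28, limma adjusted p = 0.025) and Drd1 in heterozygous mice (-0.52, limma adjusted p = 0.000509). There Drd2 stayed lower in both genotypes (-0.64 and -0.71) and Rgs9 stayed higher in heterozygous mice (0.44, limma adjusted p = 0.0314), while in wild-type mice Rgs9 did not pass (0.34, limma adjusted p = 0.0798). Isl1 passed in neither genotype there, at 0.17 and -0.05. On the deposited scale, with heterozygous replicate 3 of experiment 2 left out as well, Drd2 (-0.28, limma adjusted p = 0.0672) and Drd1 (-0.22, limma adjusted p = 0.0952) no longer passed in heterozygous mice.

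**Figure D5:**
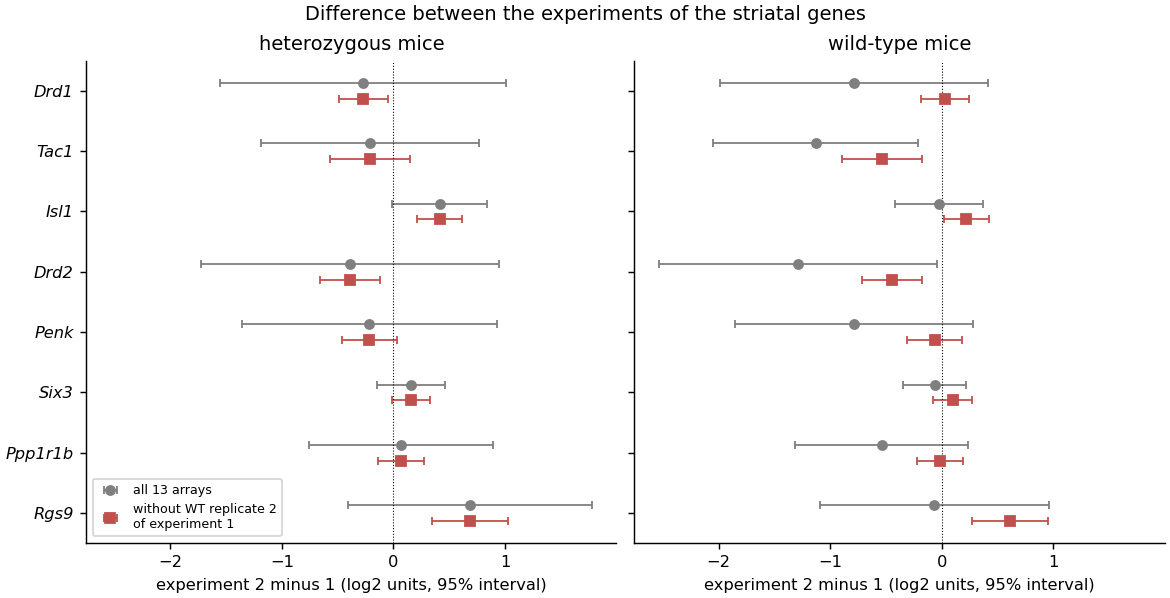
Difference of experiment 2 minus experiment 1 for the 8 genes in heterozygous and wild-type mice, in log2 units with 95% intervals from limma, with all 13 arrays (circles) and without wild-type (WT) replicate 2 of experiment 1 (squares). Without that array Rgs9 is at 0.69 and 0.61 and Drd2 at -0.39 and -0.44, and the intervals are narrower in both panels.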

How the data were processed

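The authors deposited log2 intensities of 35556 probe sets on 13 arrays, and the submitters' processing notes name RMA and the package oligo. As background, RMA subtracts background light, gives all arrays 1 distribution and summarises each probe set robustly. The sources used here state neither versions or build, nor whether the experiments were normalised together; array medians differ between them. Names came from the platform's annotation, which gives 21789 of them to 1 gene symbol, and each of 19938 genes was read from its brightest probe set on average. Gene positions and start windows are those of RefSeq.

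Tests used limma 3.58.1 (lmFit, eBayes) in R 4.3.3, with statmod 1.5.0, on the log2 values of all genes. The 4 groups shared 1 estimate of the spread, and the overall genotype difference was fitted with experiment as a second term. P-values were two-sided and adjusted by the Benjamini-Hochberg method over all genes, with a threshold of 0.05. The fit was tried on simulated data with independent normal noise and a small share of genes changed. It held no outlying array and no shift of most genes, so it does not bear on those cases. The members and lists were chosen with earlier results of these data known. The genes named outside the 8 are those furthest above the other wild-type mice on the array that stood apart, the 10 and 5 most correlated with the mean of the 8 with and without it, and up to 3 per list (10 for the further striatal genes) by size of difference. Genes named beyond this (dopamine neuron genes, Slc10a4, Ecel1, Slc18a3, Sox3, Trpc5, the hippocampal markers) were picked after their values were seen. Alternatives were every probe set, the 30% dimmest genes left out, array weights, eBayes with trend and robust, the replicate number as a block, equal array medians and each array left out. Each array stands for 1 mouse per the series' design text, and precision is limited by how few there are. Same-numbered heterozygous and wild-type arrays had correlations of deviations of -0.23 to 0.22, and differently numbered arrays of -0.28 to 0.33. With so few mice per group this cannot show whether the numbers pair the mice, and the main fits did not pair them.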

Additional observations from a re-analysis of the deposited data

Results flagged for a closer look

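In the group of 4 wild-type mice of experiment 1, replicate 2 lay far from the others for all 8 genes, by a gap to the nearest mouse that took most of the range of the group. The gap as a share of the range was 0.928 for Drd1, 0.889 for Tac1, 0.926 for Isl1, 0.902 for Drd2, 0.942 for Penk, 0.976 for Six3, 0.914 for Ppp1r1b and 0.866 for Rgs9, and 0.976 for the mean of the 8 genes. Chance alone marks about 1 in 20 groups in this way, the genes are not independent of each other on 1 array, and they were chosen with this array known. For Six3 the share is high because the other 3 mice spanned 6.49 to 6.51, with an SD of 0.009. No gene had a genotype difference that passed as different between the experiments.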

How the results depend on the processing

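The array of wild-type replicate 2 of experiment 1 moved most values. With single arrays left out, the median genotype difference over the 8 genes ran from -0.51 to -0.09 over both experiments, -0.95 to -0.16 in experiment 1 and -0.15 to -0.06 in experiment 2, in each of the first 2 ranges with the value nearest 0 coming without that array. It was -0.28 over both experiments and -0.32 in experiment 1 with array weights, -0.92 in experiment 1 with a replicate block, -0.0915 and -0.18 without that array at equal array medians, and -0.0678 and -0.16 without it and heterozygous replicate 3 of experiment 2; these last 2 settings were chosen after seeing the data. Between the experiments, 12424 genes passed in heterozygous and 13810 in wild-type mice, 20593 and 22823 with every probe set, and 10641 to 12708 and 12728 to 14225 with single arrays left out. Of the 8 genes, 0 to 4 passed in either genotype with single arrays left out. The count was 5 in heterozygous and 4 in wild-type mice without the high array at equal medians, where 11508 and 12162 of all 19938 genes passed. It was 2 and 4 without both arrays, where 12412 and 14227 of all genes passed. In wild-type mice it was 0 with every probe set, array weights or eBayes with trend and robust, 2 with the replicate block and 3 at equal medians. Of all genes, 14324 passed there with array weights, 13816 with trend and robust, 12942 with the block and 12069 at equal medians.

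Signs turned for some genes. In heterozygous mice at equal medians, with or without the high array, Six3 stood at -0.0921 and Ppp1r1b at -0.18. In wild-type mice with array weights Isl1 stood at 0.11, Six3 at 0.0524 and Rgs9 at 0.39. Without the high array, alone or with the second array, Drd1 stood at 0.0311, Isl1 at 0.22, Six3 at 0.10 and Rgs9 at 0.61, and Rgs9 at 0.34 at equal medians. Over single arrays left out, the wild-type difference ranged from -1.11 to 0.0311 for Drd1, -0.12 to 0.22 for Isl1, -0.12 to 0.10 for Six3 and -0.34 to 0.61 for Rgs9. Isl1 also turned, to 0.08, without wild-type replicate 3 of experiment 2. No gene passed for the difference of the genotype effects except 4 without the high array at equal medians. The cause of these shifts was not tested. The number of mice, 3 or 4 per group, limits every value.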
